A study of Mus musculus with 11 samples.

Results

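The regions described here were 5000 bp tiles of the mouse genome that lay outside genes and far from CpG islands. They were chosen by position and read depth alone: tiles on chromosomes 1 to 19 with coverage averaging 10 or more in each treatment group, no overlap with a deposited gene or promoter and at least 5000 bp to the nearest deposited CpG island. This rule kept 95504 intergenic tiles of 259716 tiles in all, or of 211337 autosomal tiles with that coverage. Together they span 477.52 Mb. The pancreas was taken at postnatal day 0 (P0), and its DNA methylation read by RRBS (reduced representation bisulfite sequencing). Here the enzymes MspI (CCGG) and TaqI (TCGA) cut the DNA, so that reads cover the CpG sites beside these cuts. All 11 mice were wild type C57BL/6N. The dams of 5 of them (3 females and 2 males) were injected with amphetamine at 10 mg/kg on embryonic days 14.5, 15.5 and 16.5, and those of the other 6 (3 females and 3 males) belonged to the saline group. Comparison by sex thus set 6 females against 5 males from the same mice. The labels do not give the litter of a mouse, so that p-values measure the spread between mice, some of which may be littermates. Bulk pancreas was used, in which a change of methylation within cells and a change in the shares of cell types cannot be told apart.

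In mammalian DNA most cytosines in CpG pairs carry a methyl group, which the DNA methyltransferases copy at each cell division. CpG islands at gene starts are the main exception and stay free of it. Between genes, methylation is usual over repeats such as transposon remnants, where it keeps transposons silent. Short unmethylated stretches there often mark enhancers or binding sites of proteins such as CTCF, which organizes chromosome loops.

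The sequences below show what reads can reach in 7 such tiles on which the results turn, as the 120-base stretch with most CpG sites within 50 bp of a cut. They are the plus strand of GRCm38 (the assembly also called mm10), from the RefSeq C57BL/6J reference, with CpG sites in capitals. The first 3 lie in tiles of low methylation near the genes Hoxc13, Pik3r1 and Ctrb1. The next pair lie in tiles that differed by treatment, near Spock3 and Gm29065, and the last pair in tiles that differed by sex, near Bcat1 and Large.
Hoxc13 tile, chr15:102910340-102910459: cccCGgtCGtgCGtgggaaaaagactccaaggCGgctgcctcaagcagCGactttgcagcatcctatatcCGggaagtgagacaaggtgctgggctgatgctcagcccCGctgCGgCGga
Pik3r1 tile, chr13:101801633-101801752: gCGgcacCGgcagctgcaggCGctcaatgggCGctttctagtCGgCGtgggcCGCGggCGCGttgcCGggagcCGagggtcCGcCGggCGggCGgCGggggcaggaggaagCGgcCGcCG
Ctrb1 tile, chr8:111680617-111680736: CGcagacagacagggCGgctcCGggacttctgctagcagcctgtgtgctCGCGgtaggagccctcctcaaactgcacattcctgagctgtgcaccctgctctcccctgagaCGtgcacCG
Spock3 tile, chr8:62581162-62581281: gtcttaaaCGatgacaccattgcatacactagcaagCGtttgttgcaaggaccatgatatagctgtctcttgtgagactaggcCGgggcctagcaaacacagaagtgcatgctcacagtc
Gm29065 tile, chr1:76145283-76145402: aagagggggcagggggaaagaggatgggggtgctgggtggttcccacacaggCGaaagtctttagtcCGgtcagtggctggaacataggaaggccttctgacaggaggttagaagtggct
Bcat1 tile, chr6:144903351-144903470: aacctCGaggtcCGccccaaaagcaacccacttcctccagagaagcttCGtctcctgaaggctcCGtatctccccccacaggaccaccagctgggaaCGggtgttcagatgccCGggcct
Large tile, chr8:73472987-73473106: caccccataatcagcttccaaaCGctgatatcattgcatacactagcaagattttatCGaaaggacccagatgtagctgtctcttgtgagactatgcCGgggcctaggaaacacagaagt
The Pik3r1 stretch holds 20 CpG sites in 120 bases, although the tile lies 31.5 kb from the nearest deposited CpG island. The Gm29065 stretch holds 2. The Spock3 and Large stretches read much alike: they share an identical run of 21 bases, which occurs 28072 times on chromosomes 1 to 19 and is taken up again further on.

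The label of the tiles was checked against a second gene set. Of the 95504 tiles, 81894 overlapped no gene of GENCODE release M21, while 13610 (14.3%) did, of which 5926 overlapped a lincRNA, 3057 a protein-coding gene and 1903 a processed pseudogene. The tiles were thus intergenic by the deposited gene list, and most but not all by GENCODE. The nearest deposited gene lay 58.3 kb away in the median (quartiles 18.2 and 174.5 kb), and the nearest CpG island 163.2 kb away (51.5 and 441.2 kb). Each gene named below is the nearest one, given as a landmark only. Median coverage of a tile, as the mean over the mice of a group, was 71.4 in the amphetamine group, 57.7 in the saline group, 67.3 in females and 59.6 in males. Reads from all 11 mice were present in 84411 tiles (88.4%).

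Intergenic tiles were heavily methylated in the newborn pancreas. The median over tiles of mean saline methylation was 85.4%, with quartiles of 75.6% and 90.8%. More than 75% methylation was found in 72437 tiles (75.8%), between 25% and 75% in 21614 (22.6%) and less than 25% in 1453 (1.52%). Gene-body tiles as far from CpG islands had a slightly lower median of 83.4%, with 2.76% of 84568 tiles under 25%, whereas tiles overlapping a CpG island had a median of 6.44%, with 82.5% of 15284 under 25%. Within a tile, the SD over saline mice had a median of 9.80 percentage points, and over amphetamine mice 8.82.

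**Figure D1:**
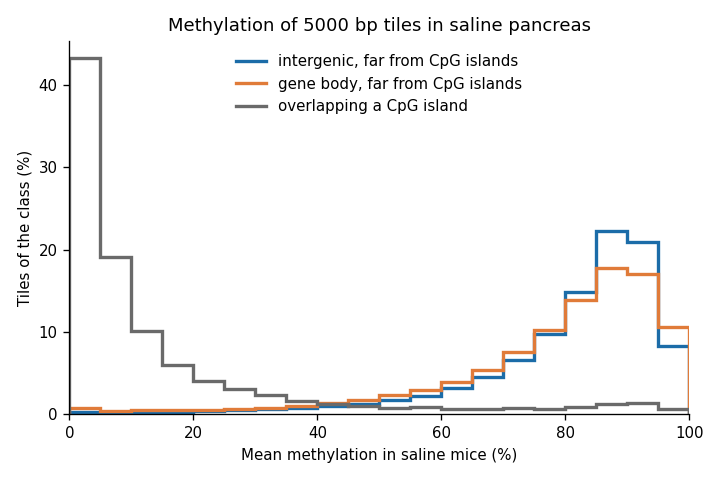
Distribution of mean methylation in saline mice over 5000 bp tiles, in bins of 5 percentage points on the x axis, with the percent of tiles of each class on the y axis. The 95504 intergenic tiles and the 84568 gene-body tiles both peak at 85 to 90%, whereas tiles overlapping a CpG island peak below 5%.

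Methylation rose with distance from genes. Tiles within 10 kb of a gene had a saline median of 82.0%, those at 10 to 50 kb 83.7%, those at 50 to 200 kb 85.9%, and those beyond 200 kb 87.7%. The share of tiles under 25% fell over the same steps from 2.79% to 2.03%, 1.18% and 0.411%. Distance from CpG islands gave the same order, with medians of 80.1% at 5 to 20 kb, 82.7% at 20 to 100 kb and 86.8% beyond 100 kb.

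Base composition and repeats sorted the tiles at least as clearly. Tiles in the lowest quartile of GC content had a median of 87.6% and those in the highest 78.9%. The quartile with least repeat-masked sequence had a median of 79.0%, with 767 tiles (3.21%) under 25%, and the quartile with most had 88.3%, with 9 tiles (0.0377%). Few tiles of low methylation thus lay in repeat-rich intergenic sequence. Over all 95504 tiles, Spearman's rho of saline methylation was -0.258 with GC content, 0.284 with the repeat-masked share and 0.170 with distance to the nearest gene. Tiles share the same 6 mice, and these properties vary together, so the coefficients are descriptions only. Chromosomes differed little, with medians from 82.8% on chromosome 11 to 87.0% on chromosome 1.

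**Figure D2:**
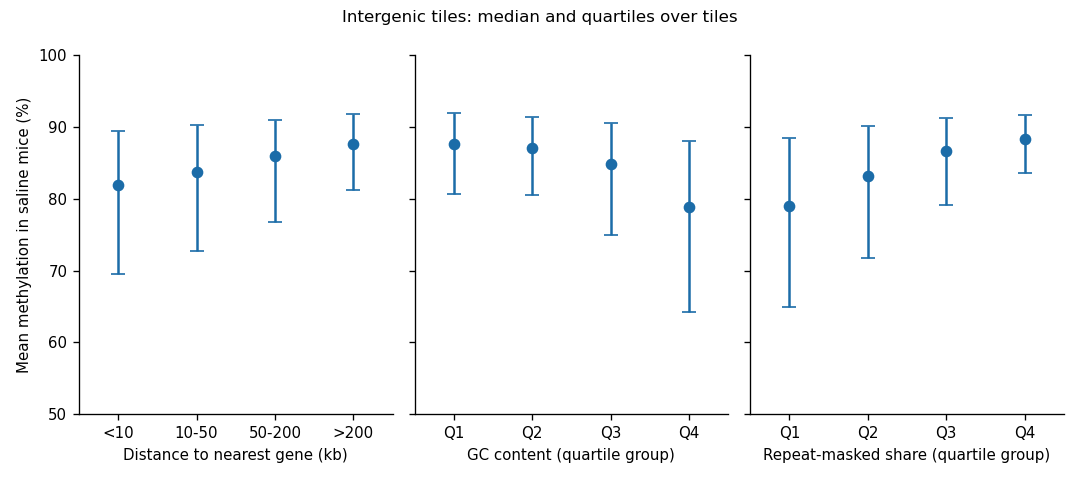
Mean methylation in saline mice (y axis, percent, drawn from 50 to 100) by distance to the nearest gene, by quartile of GC content and by quartile of repeat-masked share, each from low to high. Points are medians over intergenic tiles and bars run from the lower to the upper quartile: medians rose from 82.0 to 87.7% with distance, fell from 87.6 to 78.9% with GC content and rose from 79.0 to 88.3% with repeats.

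The tiles of low methylation had other features in common. Of the 1285 tiles with a mean under 25% over all mice, 55.3% held a 200 bp window that meets the base composition of a CpG island (at least 50% GC and an observed to expected CpG ratio of at least 0.6), against 27.3% of 73301 tiles over 75%. They held a median of 62 CpG sites against 39, and 18 sites within reach of reads against 13. Thus many had short CpG-dense stretches that the deposited island list does not hold. They lay nearer to genes, at a median of 21.9 kb against 69.1 kb.

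The letters CCAGGGGGC, a part of the CTCF consensus, were searched on both strands. They occurred in 5.91% of the tiles under 25%, in 3.61% of those from 25% to 75% and in 1.78% of those over 75%, against 2.24% of all intergenic tiles and 3.60% of the 211337 autosomal tiles. Within 100 bp of a reachable CpG site the shares were 2.96%, 1.25% and 0.572%. GC content moved with these shares: in the highest quartile of GC content, the letters occurred in 7.38% of tiles under 25% and in 3.97% of those over 75%. TCAAGGTCA, letters of the NR5A2 site (NR5A2 is a nuclear receptor of acinar cells), occurred in 13.6% of the low and 8.17% of the high tiles, and in 11% of all autosomal tiles. GTTAATNAT, a part of the HNF1 site (HNF1 proteins act in pancreas and liver), occurred in 12.3% of the low and 15.5% of the high tiles, and in 13.6% of all autosomal tiles. In the highest quartile of GC content the HNF1 letters turned direction, with 10.7% of the low and 8.38% of the high tiles, and the NR5A2 letters occurred in 16.6% and 13.5%. These are counts of letters, and binding was not measured.

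Adjoining tiles were also compared. Among 34076 pairs of adjoining intergenic tiles that both had reads in all mice, Spearman's rho of saline methylation was 0.207. Of the 1453 tiles under 25% in saline mice, 1031 had an adjoining intergenic tile, and in 97 (9.41%) of these an adjoining one was also under 25%, beside 1.52% under 25% among all intergenic tiles. Since a tile may adjoin 1 or 2 others, the shares are not on the same base.

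Among 50691 tiles with reads in all mice and a coverage of at least 50 in both groups, 17 had no methylated read in any saline mouse, and 8 had none in any of the 11 mice. The 8 with highest saline coverage at 0% are named here. The tile at chr15:102910001-102915000 lies 6.1 kb upstream of Hoxc13, a homeobox factor of the posterior Hox group. It was at 0% in each of the 11 mice, at a mean coverage of 101.6 in amphetamine and 96.0 in saline mice. Its printed stretch holds 9 CpG sites, and the tile has 28 within reach.

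The tile at chr13:101800001-101805000, 31.8 kb upstream of Pik3r1 (a regulatory subunit of PI3 kinase), was also at 0% in all mice, at coverages of 118.6 and 78.8. So was the tile at chr15:97605001-97610000, 65.1 kb downstream of Rpap3 (a co-chaperone of RNA polymerase assembly), and a tile at chr13:71455001-71460000 that lies 383.3 kb from the nearest listed gene, where 1 saline mouse had a coverage of 2. Low methylation was therefore found both near genes and far from them.

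The other 4 were at 0% in every saline mouse and above 0% in some amphetamine mice. The tile at chr19:45675001-45680000 near Fbxw4, an F-box gene, was at 4.76% ± 5.8 (SD, n = 5) in amphetamine mice, with a highest mouse of 12.8%. The tile at chr12:29290001-29295000 near Myt1l, a factor of neurons, was at 3.06% ± 4.57, that at chr1:63610001-63615000 near Dytn at 2.08% ± 4.66, and that at chr5:110090001-110095000 near Plcxd1 at 0.577% ± 1.29. By GENCODE, the Plcxd1 tile overlaps a protein-coding gene, Gm35315. All 4 ranges began at 0% and thus overlapped the saline value, and limma gave adjusted p = 0.965 or higher for each. As tiles were picked for 0% in saline, these differences could only be 0 or positive.

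The opposite extreme was a large spread between mice. At chr3:27060001-27065000 near Ect2, a gene of cell division, saline mice ran from 0% to 100%, with a mean of 61.1% ± 48.8 (SD, n = 6), while amphetamine mice ran from 66.7% to 87%. Near Fam155a (chr8:9115001-9120000) and Chrna7, a nicotinic receptor subunit (chr7:63055001-63060000), saline mice spanned 0% to 100% as well. There, amphetamine mice ran from 33.3% to 100% and from 45.7% to 100%. As the 3 tiles were picked for the largest saline SD, a narrower amphetamine range was favoured by the choice. The saline mouse with fewest reads had a coverage of 10, 8 and 7 in these 3 tiles, against group means of 53.7 to 56.8.

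Whether amphetamine in utero altered methylation between genes was asked first by the typical tile. The median difference, amphetamine minus saline, was -0.0816 percentage points, with quartiles of -4.34 and 4.06, from group medians of 85.2% and 85.4%. Methylation was higher after amphetamine in 46639 tiles and lower in 48271, while 594 had equal means. Across the 95504 tiles the treatment groups thus had nearly the same level, and the spread of differences was much larger than their median. Differences of adjoining tiles were almost unrelated, with rho = 0.0041 over 34076 pairs with reads in all mice. Differences above 25 percentage points occurred in 2822 tiles (2.95%), and in 1.53% of those with reads in all mice.

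By limma's moderated test on the deposited means and SDs, adjusted by Benjamini-Hochberg over all 259187 tiles tested, 4 of 95496 intergenic tiles passed an adjusted p of 0.05, 2 higher and 2 lower. Over all tiles, which include those of lower coverage and those on chromosomes X and Y, the share called was 0.0185%. Among 211312 autosomal tiles of the same coverage, 3 were called higher and 9 lower. Without adjustment 4349 intergenic tiles (4.55%) had p under 0.05, of which 1757 were higher and 2592 lower after amphetamine. All autosomal tiles of the same coverage had a similar share, 4.46%, with 3878 higher and 5540 lower. When tiles with an SD of 0 in either group were set aside before adjustment, none was called.

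Of the 4, a pair had reads in all mice. At chr8:62580001-62585000, 366.0 kb upstream of Spock3 (a proteoglycan gene), amphetamine mice ran from 96.4% to 100%, with a mean of 98.8% ± 1.68 (SD, n = 5), and saline mice from 77.3% to 88.1%, with a mean of 81.9% ± 3.73 (SD, n = 6). The groups did not overlap, and the difference was 16.9 ± 2.05 points (SE, adjusted p = 0.0491, limma). Coverage was 29.4 and 25.7, over only 4 reachable CpG sites, and 92.2% of the tile is repeat-masked.

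At chr1:76145001-76150000, 126.2 kb upstream of Gm29065, amphetamine mice ran from 64.9% to 82.5%, with a mean of 73.5% ± 6.76 (SD, n = 5), while each of the 6 saline mice was at 100%. The difference was -26.5 ± 2.81 points (SE, adjusted p = 0.0177, limma). It was also called with a variance trend, and was the only one of the 4 that was. One saline mouse had a coverage of 7 here.

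The other 2 calls rested on fewer mice. At chr9:73375001-73380000, downstream of Unc13c (a gene of synaptic vesicle priming), 4 amphetamine mice were at 100% and 3 saline mice at 66.7%, with an SD of 0 in both groups (adjusted p = 0.0118, limma). At chr1:182395001-182400000 near Gm10517, 3 amphetamine mice had 7.75% ± 13.4 and 4 saline mice 98.3% ± 3.49 (adjusted p = 0.0445, limma). Coverage was at most 37.6 in any group of these tiles, so that few reads set each value.

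Ranges were compared as well, over the 84411 tiles with reads in all mice. All amphetamine mice lay above all saline mice in 123 tiles (0.146%), and below them in 180 (0.213%). Over all 206588 tiles with reads in all mice the shares were 0.147% and 0.204%, shares close to those of the intergenic tiles.

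The separated tiles with coverage of at least 30 and the smallest p included several near genes of known function. At chr13:59385001-59390000 near Agtpbp1, which trims glutamates from tubulin, methylation was 89.1% ± 4.73 after amphetamine and 53.8% ± 12.1 after saline. At chr8:88375001-88380000, 12.8 kb upstream of Brd7, a bromodomain gene, it was 69.6% ± 7.54 and 44.5% ± 5.9. At chr15:90330001-90335000 near Alg10b, of N-glycan assembly, it was 53.5% ± 4.8 and 22.6% ± 10.6.

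Higher values after amphetamine were also seen near Lrrtm4, a synaptic adhesion gene (chr6:80930001-80935000), with 89.7% ± 3.5 and 76.5% ± 2.99, and near Gm23987 (chr15:70165001-70170000), with 91% ± 2.08 and 69.1% ± 6.68. In all 5, the highest saline mouse lay below the lowest amphetamine mouse. None passed adjustment: the adjusted p-values by limma ran from 0.156 to 0.295.

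Lower values after amphetamine, besides the Gm29065 tile, were seen near Dynlrb2, a dynein subunit (chr8:116430001-116435000), with 72.8% ± 2.87 and 93.4% ± 6.3, and near Ly96, the TLR4 co-receptor (chr1:16730001-16735000), with 68.1% ± 5.61 and 89.4% ± 5.35. Near Gm5916 (chr9:36365001-36370000) the means were 80.8% ± 5.28 and 97.7% ± 1.05, and near 4930467K11Rik (chr10:56940001-56945000) 59.5% ± 7.61 and 91.9% ± 9.44. The adjusted p-values of these 4 by limma ran from 0.12 to 0.241. The tiles were picked for separation, so these values are descriptions.

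**Figure D3:**
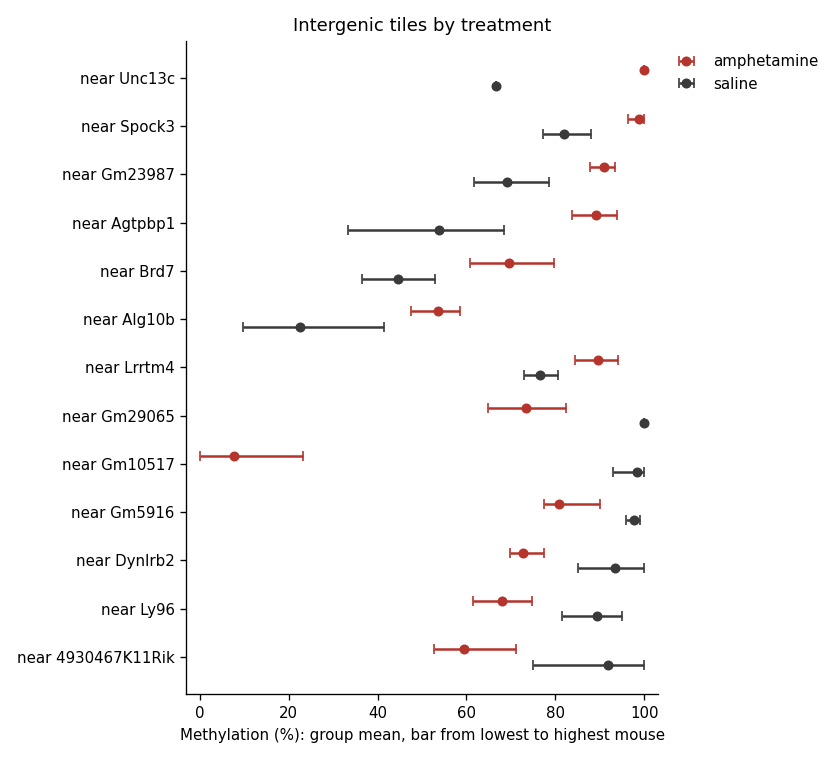
Methylation (x axis, percent) of the named tiles by treatment, each tile labelled by its nearest gene. Points are group means and bars run from the lowest to the highest mouse with reads: in each of the 13 tiles, the amphetamine range (red) and the saline range (dark) are apart, 7 with amphetamine higher and 6 with it lower.

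Females had slightly higher methylation than males in most intergenic tiles. The median difference, female minus male, was 1.07 percentage points (quartiles -3.17 and 5.46), from group medians of 86.0% and 84.4%. It was above 0 in 54804 tiles (57.4%) and below 0 in 40118. In gene-body tiles the median was 0.645 (53.7% higher), and in tiles overlapping a CpG island -0.0509 (48.3% higher). The median over intergenic tiles was above 0 on 19 of 19 chromosomes, from 0.862 on chromosome 17 to 1.45 on chromosome 19.

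Values per mouse were not used here, so the median has no test over mice, and how far 1 mouse sets it was not tested. With the lowest and the highest mouse of each group left out in each tile, the median was 0.936 points (56.9% higher). Coverage moved with sex, at a median of 1.15 times the male value in females. In the 21141 tiles where female coverage was no higher, the difference was 0.767 points (54.3% higher), and where coverage was at least 100 in both sexes it was 0.958 (59.6% higher, n = 28901).

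The tilt towards females varied with level and sequence. It was 1.47 points in tiles with a mean of 75 to 90% over all mice, 0.804 at 90 to 100% and 0.684 at 50 to 75%, but -0.942 at 25 to 50% and -1.35 at 10 to 25%. Its relation to repeats depended on the level. In tiles at 50 to 75%, the median was 1.60 points in the most repeat-masked quartile (n = 1510) and -0.0930 in the least masked (n = 6977). At 75 to 90%, where most tiles lie, the same quartiles had 1.46 (n = 13836) and 1.26 (n = 10087), and at 90 to 100% they had 0.937 and 0. By treatment, the medians ran from 0.910 points at 10 to 25% to -0.307 at 90 to 100%.

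**Figure D4:**
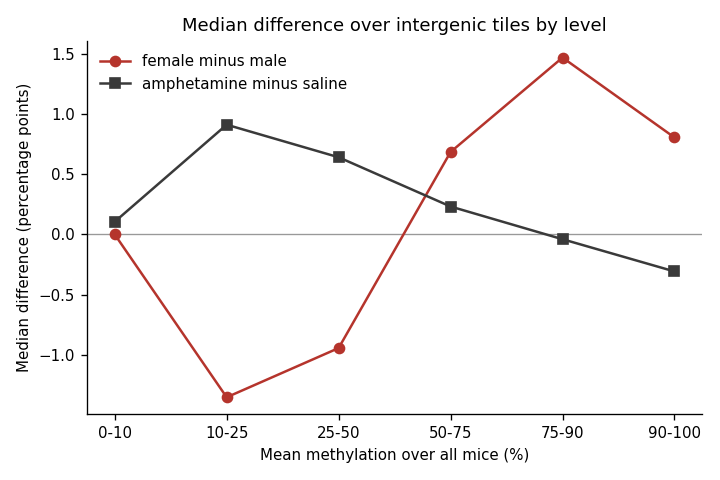
Median difference over intergenic tiles (y axis, percentage points) by mean methylation over all mice (x axis, percent), for female minus male (red circles) and amphetamine minus saline (dark squares). The sex difference ran from -1.35 points at 10 to 25% to 1.47 at 75 to 90%, and the treatment difference from 0.910 to -0.307.

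By limma over all tiles, 13 of 95427 intergenic tiles passed an adjusted p of 0.05 for sex, 12 higher and 1 lower in females. Tiles on chromosomes X and Y were part of this adjustment: 196 of 258011 tiles were called, 87 of them autosomal. With adjustment over autosomal tiles with coverage of at least 10, 3 intergenic tiles were called, those near Runx2, Large and 1700023F02Rik. With the first adjustment, the share called over all autosomal tiles was 0.0362%. Among 211151 autosomal tiles of the same coverage, it called 20 higher and 4 lower in females. Unadjusted p under 0.05 was found in 5411 (5.67%), 3778 of them higher in females and 1633 lower, beside 5.40% of all autosomal tiles of the same coverage, with 7437 higher and 3966 lower. All females lay above all males in 318 tiles (0.377%), against 0.329% of autosomal tiles, and below them in 90 (0.107%), against 0.14%. Of the 13 calls, 9 had reads in all mice and 4 rested on 2 males.

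The least methylated of these 9 lay near Bcat1, the cytosolic branched-chain aminotransferase. At chr6:144900001-144905000, 88.8 kb downstream of the gene, females ran from 27.8% to 45%, with a mean of 37.1% ± 6.3 (SD, n = 6), and males from 7.2% to 11.2%, with a mean of 9.12% ± 1.77 (SD, n = 5). The difference was 28 ± 2.99 points (SE, adjusted p = 0.00856, limma), at coverages of 112 and 89 over 37 reachable CpG sites.

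At chr8:73470001-73475000, 116.5 kb upstream of Large, a glycosyltransferase of dystroglycan, females had 99.2% ± 0.963 (range 97.8% to 100%) and males 71% ± 5.16 (65.2% to 77.8%). The difference was 28.2 ± 2.3 points (SE, adjusted p = 0.00118, limma). The tile is repeat-masked over 99.9% of its length, and coverage was 44.5 in females and 22.2 in males. Near Cdk19, a kinase of the Mediator complex (chr10:40500001-40505000), the values were 96% ± 2.99 and 67% ± 8.02, and near Crygf, a lens crystallin (chr1:65990001-65995000), 98.2% ± 3.35 and 69.5% ± 7.97. In these 3 tiles nearly full methylation in females stood beside means of 67% to 71% in males.

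Among further calls with reads in all mice, 3 more were higher in females. Near Ywhaz, of the 14-3-3 adaptor family (chr15:36725001-36730000), females had 60% ± 3.97 and males 36.6% ± 6.7. By GENCODE, the Ywhaz tile overlaps a lincRNA, Gm49263. Near Gm12587 (chr11:121915001-121920000) females had 97.8% ± 2.56 and males 83.4% ± 3.03. On chromosome 18, 2.49 kb from Gm10556, a tile had 91.6% ± 1.96 and 57.9% ± 8.6 (adjusted p = 0.00819, limma).

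The only call lower in females lay 304.5 kb upstream of Dcn, the matrix proteoglycan decorin (chr10:97170001-97175000). Females ran from 70% to 76.9% and males from 84.8% to 95%, with means of 73.8% ± 2.96 and 90% ± 3.89 (adjusted p = 0.0392, limma). Mean coverage was 70 in both sexes.

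The 4 calls on 2 males gave the widest differences at the fewest reads. Near Runx2, a factor of bone (chr17:44435001-44440000), 4 females were at 100% and 2 males at 0%, at a mean male coverage of 8. Near Ccdc186 and 1700023F02Rik the females were at 93.9% and 100% and the males at 0% and 4.17%. Near Adam34 they were at 100% and 62.1%. These calls rest on few reads.

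**Figure D5:**
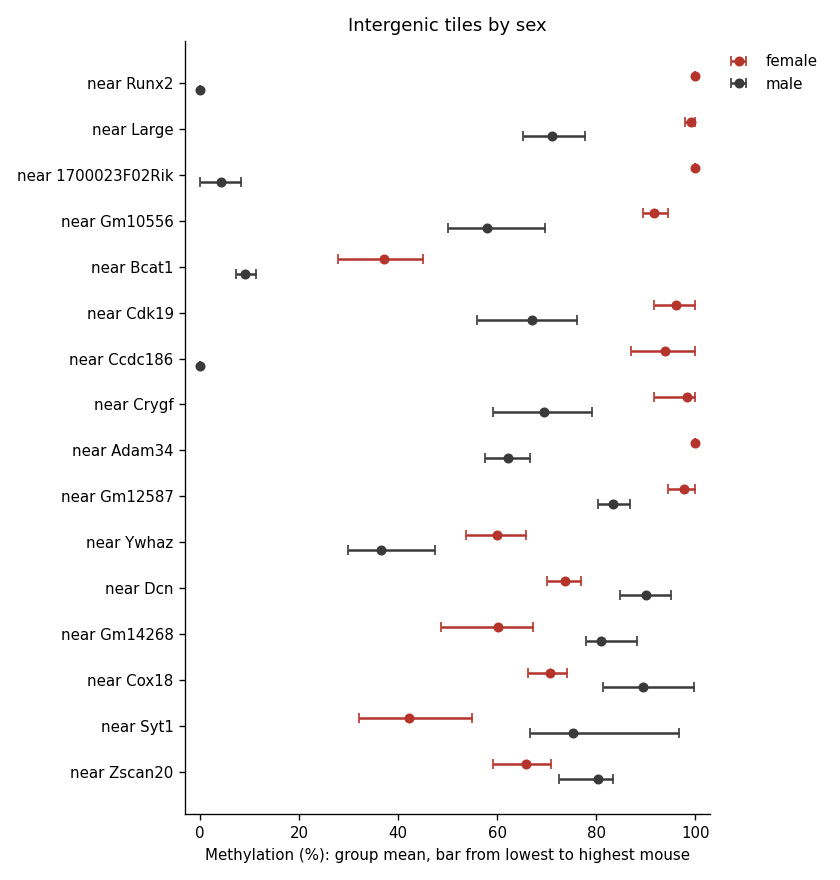
Methylation (x axis, percent) of 12 tiles called by sex and 4 further tiles in which all females lay below all males, labelled by nearest gene. Points are group means and bars run from the lowest to the highest mouse with reads: females (red) are higher in 11 tiles and lower in 5, and the Bcat1 and Ywhaz tiles are the only ones of the 11 in which the female mean is below 90%.

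The run of 21 bases shared by the Spock3 and Large stretches was common among the tiles. It occurred in 15142 of the 95504 intergenic tiles (15.9%), most of which (14966) had reads in all mice. Reads of 50 bases from such copies can be hard to assign to one of them, and how they were counted is not given in the sources used here. Tiles with the run had a saline median of 89.3% against 84.0% in the 80362 without it, and 5 of them (0.0330%) were under 25% against 1.80%. They lay a median of 111.2 kb from a gene, against 51.5 kb. In the most repeat-masked quartile of tiles without the run, the saline median was 87.6%, with 0.0471% under 25%. Those tiles lay a median of 85.4 kb from a gene. The median repeat-masked share was 59.7% with the run, 34.3% without it and 83.9% in that quartile.

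Sex and treatment differences were also set out for these tiles. Female minus male had a median of 1.42 points with the run (62.8% higher) and 0.973 without it (56.4% higher), and 1.17 in the most repeat-masked quartile of tiles without it (62.7% higher). Amphetamine minus saline had medians of -0.256 with the run, -0.0314 without it and -0.0688 in that quartile of tiles without it. The run was present in 1 of the 4 tiles called by treatment, that near Spock3, and in 3 of the 13 called by sex, those near Large, Gm12587 and Dcn. The run was picked after these tiles had been called, so the counts are descriptions.

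Genes of the pancreas and of monoamine signalling were examined by the intergenic tiles within 100 kb that had them as nearest gene. Of the pancreas transcription factors, 19 genes had 132 such tiles, with a saline median of 80.2%, and 5 tiles (3.79%) were under 25%, among them 1 each near Hes1, Nkx6-1 and Prox1. All 59730 tiles within 100 kb of a gene had a median of 83.8%, with 2.07% under 25%. None of the 132 tiles was called by limma, and 5 had an unadjusted p under 0.05, beside 2742 of the 59730. Methylation was higher after amphetamine in 81 and lower in 51, with a median of 2.13 points. Over all tiles within 100 kb it was higher in 29108 and lower in 30219, with a median of -0.0960. The genes of the list differed in direction, with medians from -10.2 points near Hnf4a (2 tiles) to 14.2 near Lmx1b (3 tiles). This tilt was not tested.

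The tile of this list with smallest p lay near Onecut1, a factor of pancreas progenitors (chr9:74910001-74915000), with 70% ± 21.4 in 4 amphetamine and 100% in 4 saline mice (adjusted p = 0.965, limma).

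Only 9 tiles lay beside 7 genes of acinar enzymes, with a median of 81.9%. Methylation was higher after amphetamine in 3 and lower in 6 of them, with a median difference of -1.25 points. None was called by limma, and 2 of the 9 had an unadjusted p under 0.05, beside 2742 of 59730 within 100 kb of any gene. The lowest of the 9 began 1.51 kb downstream of Ctrb1, which encodes chymotrypsinogen B (chr8:111680001-111685000). It had 32.3% ± 22.9 (10.1% to 66.6%) in amphetamine and 22.7% ± 19.3 (4.21% to 50%) in saline mice, a wide spread within both groups. A tile upstream of Pnlip, pancreatic lipase (chr19:58650001-58655000), had 84.1% ± 16.8 in 5 amphetamine and 55.5% ± 14.6 in 4 saline mice (adjusted p = 0.965, limma); GENCODE places it within Pnlip.

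Islet hormone and secretory genes had 46 tiles at 8 genes with a median of 87.0%, and serotonin genes 74 tiles at 14 genes with a median of 87.8%. No tile of either list was under 25%, and none was called by limma. An unadjusted p under 0.05 was found in 2 and 3 of them, beside 2742 of 59730 within 100 kb of any gene. Amphetamine was higher in 21 and lower in 25 of the islet tiles, with a median difference of -0.217 points, and higher in 38 and lower in 36 of the serotonin tiles, with a median of 0.402 points. The islet tile with smallest p lay near Slc30a8, the zinc transporter of islet granules (chr15:52245001-52250000). It had 86.9% ± 8.9 (77.7% to 100%) after amphetamine and 98.1% ± 3.06 (93.3% to 100%) after saline. The ranges overlapped, at coverages of 21.8 and 18 (adjusted p = 0.965, limma). The lowest tile near an islet gene lay by Pcsk1, a prohormone convertase (chr13:75230001-75235000), and spanned 0% to 100% in saline mice.

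The serotonin tile with smallest p lay 4.21 kb downstream of Htr3a, the ion channel receptor for serotonin (chr9:48890001-48895000), and was deeply covered, at 767.6 and 649.2. Amphetamine mice ran from 50% to 87.8%, with a mean of 68% ± 13.7 (SD, n = 5), and saline mice from 80% to 87.9%, with a mean of 84.3% ± 3.17 (SD, n = 6). The ranges overlapped, and the difference of -16.3 ± 5.54 points (SE) had an adjusted p = 0.965 by limma. The lowest tile of this list lay by Tph2, the tryptophan hydroxylase of neurons (chr10:114995001-115000000), at 44.4% ± 39.5 and 47.7% ± 36.8.

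Developmental transcription factor families (Hox, Pax, Sox, Tbx, Irx and others, taken by symbol) had 570 tiles at 99 genes, with a median of 79.9%. Symbols that only begin like that of a family member, such as Dlx6os1 and Tbx3os2, were taken in as well. Of the 570 tiles, 28 (4.91%) were under 25%, at genes that included Hoxc13, Hoxb13, Tbx4, Tbx5, Pax2, Six2, Six3 and Gata3. Amphetamine was higher in 288 and lower in 280, none was called by limma, and 19 of 570 had an unadjusted p under 0.05, beside 2742 of 59730 within 100 kb of any gene. The smallest p lay 71.3 kb upstream of Irx1 (chr13:72035001-72040000), where amphetamine mice ran from 79.8% to 88% and saline mice from 72.5% to 79%. The means were 83.6% ± 3.15 and 75.6% ± 2.83 at coverages of 289.6 and 255.3, and the groups did not overlap (adjusted p = 0.965, limma). The tile is repeat-masked over 91.8% of its length.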

How the data were processed

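Pancreas DNA of 11 P0 mice was profiled by RRBS. The authors cut it with both enzymes, read 50 bases of each fragment from one end, aligned reads to mm10 with Bismark (its version is not given in the sources used here) and summarized CpG sites per region with RnBeads. The deposited tables give methylation per tile and group as a fraction, the authors' mean over mice with reads (a percent in the text), with SD, lowest and highest mouse and number of mice without reads. Coverage is a deposited signal, the mean over mice, not normalized for depth and taken here as summed over a tile's CpG sites. It limits precision, and no interval could be made from it. The columns of the authors' own comparisons (p-values, adjusted p-values, log2 quotients, differences and combined ranks) were not used.

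limma 3.58.1 (squeezeVar, in R 4.3.3) moderated each tile's variance, rebuilt from group SDs and numbers of mice, over all tiles with at least 2 mice with reads per group, with Benjamini-Hochberg adjustment and no covariate. Tiles on chromosomes X and Y were included. The test was two-sided and checked on simulated data for 151041 tiles with reads in all mice. Tiles with a very small saline SD, with low methylation or without reads in some mice were left out, so calls on such tiles were not checked. Of 200 simulated tiles shifted by -30 points, 34% were called, so a tile that was not called may still differ. Tiles were called at an adjusted p under 0.05. Gene, GC, repeat and motif features came from GRCm38 and GENCODE M21. Python 3.11.15 with pandas 2.3.3 and numpy 2.4.6 was used.

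The tiles, gene lists and tests were chosen with earlier results of these data known. Named tiles are the 8 lowest in saline (reads in all mice, coverage of at least 50, ties ordered by saline coverage), up to 6 called in each direction, the 5 higher and 5 lower non-overlapping tiles of smallest p (coverage of at least 30), the lowest tile and that of smallest p per gene list, and the 3 of largest saline SD. Of the tiles and genes that this rule and the calls give, 3 are not reported here. Further tiles called by sex, the repeat run, the motifs, the trimmed means and the splits by coverage were added after the values were seen. Alternatives changed the coverage, the distances, the test and the threshold.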

Additional observations from a re-analysis of the deposited data

How the results depend on the processing

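The number of intergenic tiles called by treatment was 4 as reported. It was 8 at a coverage of at least 5 and 1 at a coverage of at least 30. It was 2 with reads in all 11 mice and 0 with adjustment over autosomal tiles with coverage of at least 10. With an SD above 0 in both groups it was 0, and with a variance trend 1. The study's thresholds (a difference above 25 points and a fold change above 1.5 as well) gave 1. Without adjustment, and with tiles of SD 0 kept, 4349 had p under 0.05 with limma. The number called by sex, 13 as reported, was 27 at a coverage of at least 5, 3 with adjustment over autosomal tiles, 3 with an SD above 0, 23 at an adjusted p under 0.1, 5411 unadjusted and 6 with the study's thresholds. The cause of these changes was not tested. Under the other settings the counts were 3 to 5 by treatment and 9 to 13 by sex. Tiles whose groups do not overlap numbered 249 to 313 by treatment (303 as reported) and 340 to 418 by sex (408). The median level ranged from 84.9% to 85.8%, the median treatment difference from -0.120 to -0.0454 points and the median sex difference from 0.936 to 1.14. The settings on GENCODE genes, on reads in all mice for the calls and on trimmed means were chosen after seeing the data. Leaving out each mouse could not be run, because values per mouse were not used here. No paired analysis was possible because the labels number no mice across groups.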

Other observations

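A search for tiles held near an even split of methylated and unmethylated reads, as imprinted regions show, was added after the values were seen. Of 28464 intergenic tiles with coverage of at least 100 in both treatment groups and reads in all mice, 13 had every mouse between 40% and 60%. The most deeply covered outside chromosome 18 lay 389.6 kb from Mgmt (chr7:136500001-136505000), with 51.7% (46.6% to 54.5%) in amphetamine and 51.2% (45.0% to 58.6%) in saline mice at coverages of 1168 and 797. The tile near 1700028P14Rik (chr19:23655001-23660000) had 50.6% and 48.6%, and that near Hrh1, a histamine receptor gene (chr6:114520001-114525000), 54.6% and 51.8%. Reads were not assigned to parental alleles, and a mean over CpG sites at 0% and 100% would give the same value.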
